A study of Mus musculus with 106 samples.

Results

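Dppa3, Dnd1 and Alpl are 3 genes used as markers of primordial germ cells (PGCs), from which sperm and eggs descend, and they were followed here in single mouse cells of 11 groups. They were found by gene symbol among the 18193 genes measured, and each was read by 1 probe set: 1424295_at for Dppa3, 1455367_at for Dnd1 and 1423611_at for Alpl. Dppa3, also called stella, encodes a small protein that is inherited through the egg and protects DNA methylation in the early embryo. Dnd1 encodes an RNA-binding protein without which germ cells are lost in fish and mice, and which recruits the CCR4-NOT deadenylase to messenger RNAs. Alpl encodes tissue-nonspecific alkaline phosphatase, the membrane enzyme whose activity stains PGCs blue or red in classical histology.

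Every cell came from a C57BL/6 embryo and had its own array, hybridised with cDNA amplified from that cell. The wild-type lineage held 8 posterior epiblast cells of the pre-streak (PS) stage chosen by Oct4 and T, 7 precursors of the Early/Mid-Streak (E/MS) stage, and 17 precursors of the Late-Streak/0-Bud (LS/0B) stage chosen by Blimp1 and Oct4. It went on with 8 PGCs each at 3 stages, Early/Mid-Bud (E/MB), then early head fold (EHF), then E8.25, all chosen by Blimp1 and stella. The other wild-type groups were 10 posterior mesoderm cells from the base of the allantois at E/MB, with Oct4 and Hoxb1 and no Blimp1, and 2 groups of 4 cells with Blimp1, Oct4 and Hoxb1. One of these was labelled E/MB, and the other EHF in its description but E/MB in its title. Cells of the Blimp1 (-/-) genotype, 20 at LS/0B and 12 at E/MB, were chosen by the transcript of the null allele and Oct4. Blimp1 is the product of Prdm1, a transcriptional repressor needed to form PGCs, and Oct4 is the product of Pou5f1. Since the labels do not tie cells to embryos or litters, a group counts as 1 sample, and values are given with the spread over cells and without a test. Dppa3 was the transcript by which PGCs were chosen, so its level in the PGC groups describes that choice and is not a result.

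Levels are array signals on a linear scale as the authors deposited them. Means were taken over log2 signals after raising values below 70.2, the upper edge of the signal of receptor genes not expected in these cells, to that floor (6.13 in log2). A transcript was called detected in a cell when it exceeded the 95th percentile of those background probe sets in the same cell, a limit that lay between 82.8 and 166. About 5% of background probe sets pass that limit by construction, so a few detected cells in a group can be background. Amplification from a single cell also loses transcripts at random, so a cell with a low signal may still have held the transcript.

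The cells passed 8981 to 14502 probe sets each, and no pair of cells was identical. The 10 mesoderm cells stood apart in the hybridisation controls, at 11.23 ± 0.33 (SD) in log2 against 9.79 ± 0.28 in all others, with ranges of 10.77 to 11.70 and 9.05 to 10.75. Germ cell markers (Prdm1, Prdm14, Tfap2c, Kit, Sox2 and Ifitm3) were checked in the PGCs, where 6 of 6 were detected in at least 50% of cells in each of the 3 groups. Their summed signal was 13338 to 20026 in PGCs and 487 to 4146 in mesoderm cells. Prdm1 counts in both checks, although PGCs were chosen with Blimp1 and mesoderm cells without it. Transcripts of Xist, which marks cells with an inactive X chromosome, were found in 8 of 8 PS cells, in 0 of 7 E/MS precursors, in 8 of 17 LS/0B precursors and in 5 of 8 EHF PGCs, and in 0 cells of the E/MB and E8.25 PGC groups. Y-linked transcripts were found in 8 of the 9 other LS/0B precursors and in all 3 other EHF PGCs, and no cell had both, so these groups held cells of male and female embryos.

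Dnd1 and Alpl, which were not named among the genes used to choose the cells, had their highest means in the 3 PGC groups. In the 5 groups outside the wild-type lineage Dppa3 was detected in 5 of 50 cells, 4 of them E/MB knockout cells. Dnd1 was detected in 20 of those 50 cells at mostly low signals, and Alpl in 46 of 50. With the limit at the 99th percentile, Alpl was detected in 8 of 20 LS/0B and 7 of 12 E/MB knockout cells. It was then detected in 8 of 10 mesoderm cells and in 4 of 4 cells of each Blimp1+ Hoxb1+ group. All 3 genes were detected together in 24 of 24 PGCs, and in 11 of the 82 other cells.

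**Figure D1:**
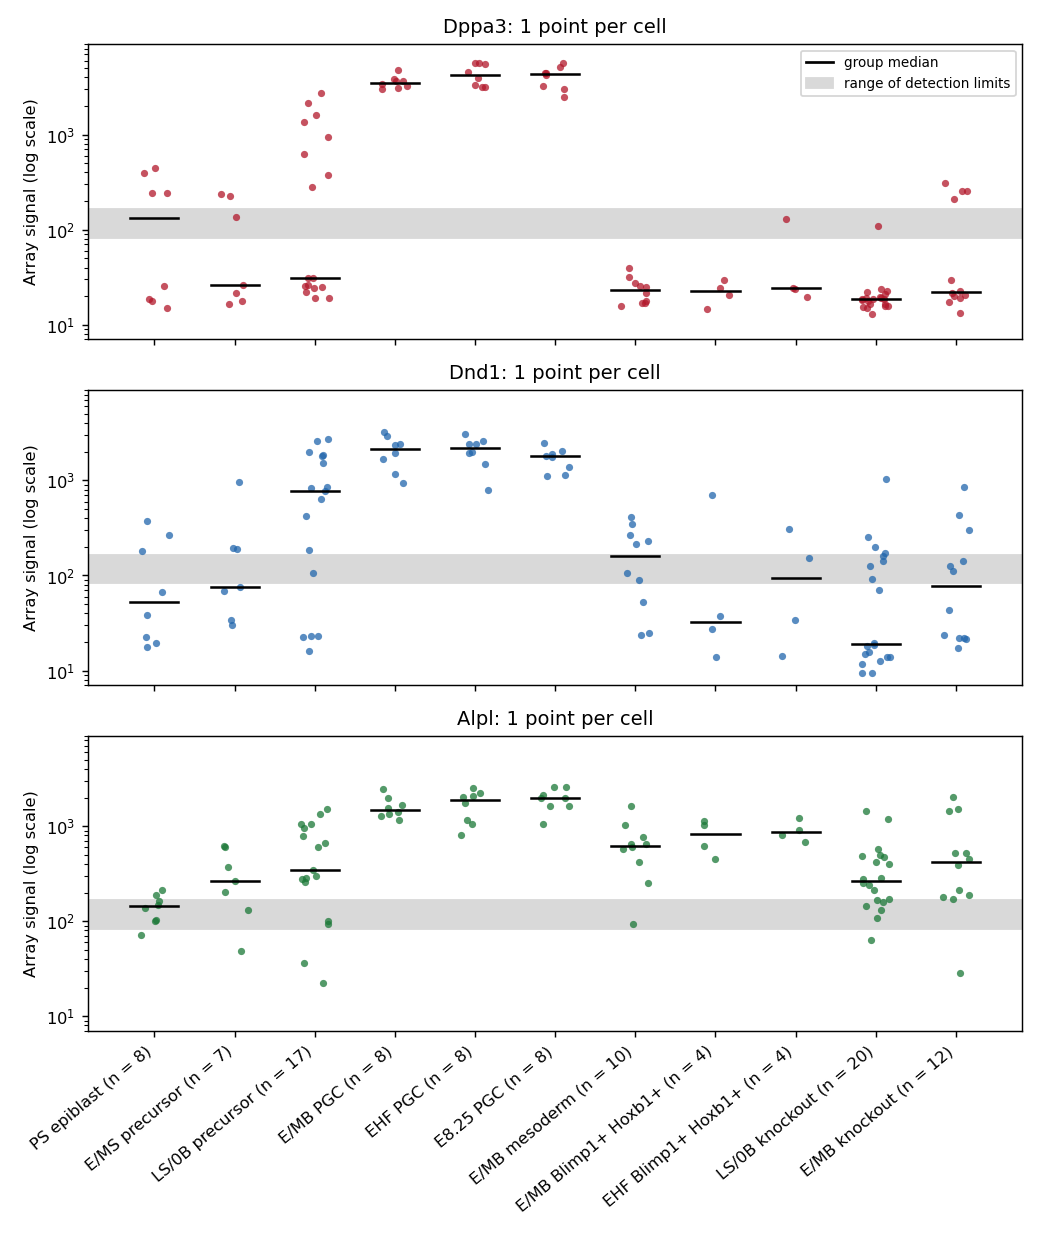
Signal of Dppa3 (top), Dnd1 (middle) and Alpl (bottom) in each cell on a log axis, by group; points are cells, black bars are group medians, and the grey band spans the detection limits of 82.8 to 166. The PGC groups lie high and narrow in all 3 panels, while Dppa3 falls into separate high and low sets in the LS/0B precursors and Alpl stays above the band in most mesoderm and Blimp1+ Hoxb1+ cells.

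Dppa3 signals in the PS epiblast ran from 15 through a median of 134 to 445, and 4 of 8 cells were detected. The 4 detected cells lay between 242 and 445 and the others between 15 and 25.7, so the median falls in an empty stretch. In the E/MS precursors the signals were 16.7 at the lowest, 26.4 at the median and 239 at the highest, with 3 of 7 cells detected. The precursors of LS/0B spread from 19 through a median of 31.1 to 2773, with 8 of 17 detected. Those 17 cells split: 9 stood at or below 31.1, none stood between 31.1 and 278, and the 8 above were at 278, 378, 625, 941, 1375, 1598, 2169 and 2773.

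Dppa3 then stood between 3020 and 4782 in the E/MB PGCs (median 3533), between 3157 and 5725 in the EHF PGCs (median 4231), and between 2508 and 5716 in the E8.25 PGCs (median 4357). Over these 24 cells, chosen by this transcript, the highest signal was 2.28 times the lowest. Of the 82 other cells, 1 LS/0B precursor at 2773 reached the lowest PGC signal of 2508. The mesoderm cells ran from 15.7 through 23.4 to 39.2 and the LS/0B knockout cells from 12.9 through 18.6 to 110, with 0 of 10 and 0 of 20 detected. Counts of 0 there allow shares of up to 30.8% and 16.8% (upper bounds of exact Clopper-Pearson 95% intervals, which cover counting error only). The 4 Blimp1+ Hoxb1+ cells at E/MB were at 14.7, 20.6, 24.6 and 29.7, and those labelled EHF at 19.7, 23.8, 24.4 and 129, the last being the 1 detected cell. The E/MB knockout cells ran from 13.2 through 22.1 to 314, and their 4 detected cells, at 210, 253, 258 and 314, lay far under the lowest PGC.

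Mean Dppa3 log2 signals ordered the groups as EHF PGC (12.06 ± 0.38, SD over cells), E8.25 PGC (11.96 ± 0.41), E/MB PGC (11.80 ± 0.21), LS/0B precursor (7.92 ± 2.11), PS epiblast (7.23 ± 1.21), E/MS precursor (6.76 ± 0.83) and E/MB knockout (6.76 ± 0.93). Below them came the EHF Blimp1+ Hoxb1+ cells (6.35 ± 0.44), the LS/0B knockout cells (6.17 ± 0.15), and the E/MB Blimp1+ Hoxb1+ and mesoderm cells, both wholly at the floor of 6.13. The step of 3.88 between E/MB PGC and LS/0B precursor was the 1 gap between neighbours in this order that exceeded their pooled SD (1.5). All other neighbours differed by less than the spread between their cells.

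Dnd1 signals in the PS epiblast were 17.8 at the lowest, 52.3 at the median and 376 at the highest, with 3 of 8 cells detected. The E/MS precursors spread from 30.1 through 76.5 to 959, with 3 of 7 detected, and 1 cell lay well above the next at 193. In the LS/0B precursors the signals ran from 16.2 through 770 to 2744, and 12 of 17 cells were detected. Here Dnd1 was more graded than Dppa3, with 4 cells at or below 23.1 and others at 186, 427 and 643 on the way to the highest. A total of 8 of these 17 cells were at or above 798, the lowest Dnd1 signal of any PGC.

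The E/MB PGCs ran from 938 through 2152 to 3246, the EHF PGCs from 798 through 2200 to 3057, and the E8.25 PGCs from 1113 through 1802 to 2472. Every one of these 24 cells was detected, and the highest was 4.07 times the lowest. Outside the lineage, mesoderm cells ran from 23.8 through 160 to 409 with 5 of 10 detected, a count that was 1 of 10 with a limit at the 99th percentile. The Blimp1+ Hoxb1+ cells of E/MB were at 13.8, 27.4, 37.4 and 697, and those labelled EHF at 14.2, 34.3, 153 and 306. LS/0B knockout cells ran from 9.32 through 18.9 to 1041 with 7 of 20 detected, and E/MB knockout cells from 17.2 through 77.6 to 860 with 5 of 12 detected. At the 99th percentile limit these were 1 of 20 and 2 of 12, so most of the Dnd1 signal outside the lineage was close to background.

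By mean Dnd1 log2 signal, the EHF PGCs (10.94 ± 0.61), E/MB PGCs (10.92 ± 0.63) and E8.25 PGCs (10.69 ± 0.41) came first and the LS/0B precursors next (8.93 ± 2.03). The 7 remaining groups lay together, from mesoderm at 7.24 ± 1.02 down to LS/0B knockout at 6.73 ± 0.99. The gaps from E8.25 PGC to LS/0B precursor (1.75, pooled SD 1.47) and from LS/0B precursor to mesoderm (1.70, pooled SD 1.61) exceeded the spread, and the other 8 neighbouring gaps did not. LS/0B precursors thus held an intermediate mean of Dnd1, made of cells at PGC levels, cells at background and detected cells between. The cells between were at 186, 427, 643 and 770.

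Alpl was the gene of the 3 detected in the most cells, in part at signals near the limit. In the PS epiblast it ran from 71.1 through 145 to 214, with 4 of 8 cells detected at the 95th percentile limit and 0 of 8 at the 99th, so its level there was near background. The E/MS precursors spread from 48.3 through 263 to 617, with 6 of 7 detected. In the LS/0B precursors the signals were 22.2 at the lowest, 344 at the median and 1527 at the highest, and 13 of 17 cells were detected. A total of 5 of the 17 were at or above 814, the lowest Alpl signal of any PGC.

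In PGCs, Alpl ran from 1171 through 1485 to 2476 at E/MB, from 814 through 1904 to 2548 at EHF, and from 1062 through 1976 to 2609 at E8.25. The highest of these 24 cells was 3.20 times the lowest. Mesoderm cells ran from 94.6 through 625 to 1642 with 9 of 10 detected, and 2 of them were at or above the lowest PGC. The Blimp1+ Hoxb1+ cells of E/MB were at 450.5, 614, 1030 and 1122, and those labelled EHF at 683, 810, 922 and 1227, so 8 of 8 were detected and 4 of 8 reached the PGC range. Knockout cells ran from 64.0 through 267 to 1448 at LS/0B, with 18 of 20 detected, and from 28.8 through 424 to 2010 at E/MB, with 11 of 12 detected. In all, 16 of the 82 cells outside the PGC groups had Alpl signals within the range of PGCs, against 11 for Dnd1 and 1 for Dppa3.

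The order of the groups by mean Alpl log2 signal was E8.25 PGC (10.88 ± 0.42), EHF PGC (10.64 ± 0.60), E/MB PGC (10.61 ± 0.36), EHF Blimp1+ Hoxb1+ (9.80 ± 0.36), E/MB Blimp1+ Hoxb1+ (9.55 ± 0.62), mesoderm (9.06 ± 1.13), E/MB knockout (8.66 ± 1.48), LS/0B precursor (8.56 ± 1.5), LS/0B knockout (8.16 ± 1.11), E/MS precursor (7.99 ± 1.15) and PS epiblast (7.06 ± 0.53). Gaps larger than the pooled SD lay between E/MB PGC and the EHF Blimp1+ Hoxb1+ cells (0.81 against 0.36) and between E/MS precursor and PS epiblast (0.93 against 0.89). LS/0B precursors, of the stage directly before the first PGC group, had a lower mean of Alpl than the mesoderm and Blimp1+ Hoxb1+ cells, with overlapping ranges. For Dnd1 and Dppa3 the LS/0B precursors came directly after the PGCs.

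Alpl is annotated with 2 transcription starts, and its single probe set here gives 1 value for the gene whichever start is used. The 250 bases before each start are shown because Alpl was the member expressed both in PGCs and in their neighbours, and because it was the 1 member of the 3 with entries in the RefSeq promoter table of build GRCm38.p6. The starts lie 29909 bases apart on the minus strand of chromosome 4, and the windows are at chr4:137796385-137796634 and chr4:137766476-137766725. Capitals mark matches on either strand to the AP-2 motif GCCNNNGGC and the GC box GGGCGG, some of which overlap each other in the first window.
Alpl, first start: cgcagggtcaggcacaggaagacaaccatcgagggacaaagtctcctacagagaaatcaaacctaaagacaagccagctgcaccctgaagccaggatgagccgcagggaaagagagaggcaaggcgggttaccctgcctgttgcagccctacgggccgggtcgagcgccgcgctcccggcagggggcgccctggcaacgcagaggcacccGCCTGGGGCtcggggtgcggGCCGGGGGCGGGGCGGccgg
Alpl, second start: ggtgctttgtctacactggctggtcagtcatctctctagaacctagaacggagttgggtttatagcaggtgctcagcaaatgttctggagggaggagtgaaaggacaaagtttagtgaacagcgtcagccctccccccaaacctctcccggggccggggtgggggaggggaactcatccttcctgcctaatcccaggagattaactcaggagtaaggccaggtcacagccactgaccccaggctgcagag
The first window is rich in G and C (68.4%, against a median of 52.4% over all promoters) and holds 2 AP-2 and 2 GC box matches, close to the start. The second window has 56% G and C and 0 matches to either. Of 32851 promoters of this length, 13.73% hold an AP-2 match and 32.74% a GC box, so neither is rare. The octamer ATGCAAAT (in 1.601% of promoters), the PRDM1 core GAAAGT (12.32%) and the T-box motif AGGTGTGA (1.12%) had 0 matches in both windows, searched on both strands. A match describes letters and not a bound factor.

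The first question the series allows is when each transcript appears along the lineage. Shares of detected cells were 50%, 42.9% and 47.1% for Dppa3 in the PS, E/MS and LS/0B groups, 37.5%, 42.9% and 70.6% for Dnd1, and 50%, 85.7% and 76.5% for Alpl, and all 3 stood at 100% in the PGC groups. Of all genes, 40.6%, 44.9% and 41.7% were detected at least as often as Dppa3 in the 3 early groups. For Dnd1 these shares were 45.1%, 44.9% and 31.8%, and for Alpl 40.6%, 29.0% and 29.1%. With the limit at the 99th percentile, detected cells in the 3 early groups were 3, 1 and 8 for Dppa3. They were 2, 1 and 11 for Dnd1, and 0, 3 and 10 for Alpl. The exact 95% intervals of these early groups are wide, for example 9.90% to 81.6% for Dppa3 and 42.1% to 99.6% for Alpl in the E/MS precursors. Since they overlap, these cells do not fix an order in which the 3 genes were first detected. In mean level, the largest step between neighbouring stages came for Alpl between the LS/0B precursors and the E/MB PGCs. For Dnd1 the steps into and out of the LS/0B group were close, at 1.83 and 1.98, and the first was the larger without any of 7 single cells, for example 2.30 without E/MS precursor replicate 5.

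**Figure D2:**
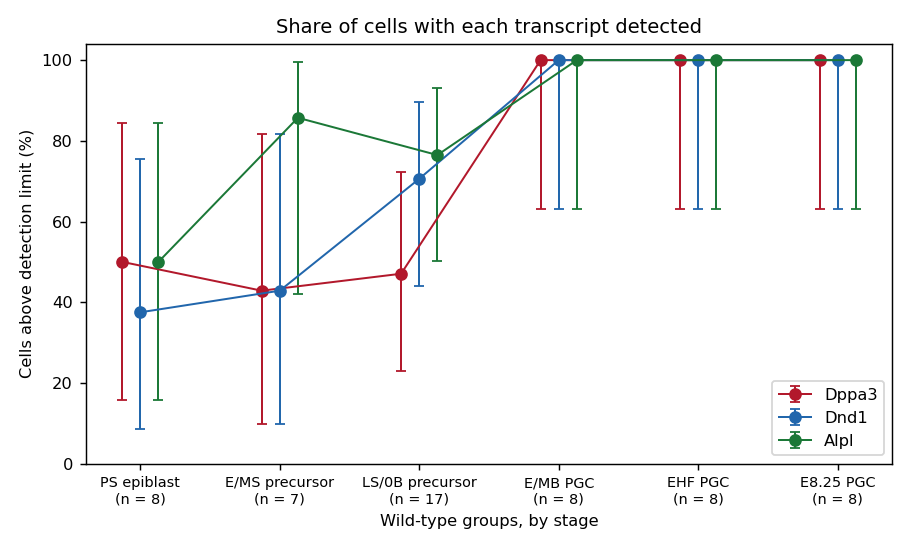
Share of cells (%) above the detection limit for Dppa3 (red), Dnd1 (blue) and Alpl (green) in the 6 wild-type lineage groups in order of stage; bars are exact 95% Clopper-Pearson intervals, which cover counting error only. Shares in the PS, E/MS and LS/0B groups have overlapping intervals, and all 3 genes are at 100% from E/MB on.

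From PS epiblast to E/MS precursors, 0 of the 3 genes differed by 1 log2 unit or more, a size that 2.67% of all genes reached upwards and 2.94% downwards. The differences were -0.46 for Dppa3, 0.26 for Dnd1 and 0.93 for Alpl, against pooled SDs of 1.03, 1.23 and 0.89. PS cells all had Xist and E/MS precursors had none, so the part of this cannot be told apart from that of stage. Alpl passed 1 with each array scaled to its spiked lys control (1.25) or without any of 4 single cells: E/MS precursor replicate 2 (1.09) or 6 (1.24), or PS epiblast replicate 2 (1.03) or 8 (1.0).

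From E/MS to LS/0B precursors, 2 of 3 genes reached 1 log2 unit, Dppa3 with 1.16 and Dnd1 with 1.83, as 1.48% of all genes did upwards and 1.47% downwards. Alpl differed by 0.57. The pooled SDs were 1.60, 1.75 and 1.34, so only for Dnd1 was the difference larger than the spread between cells. For Dppa3 the difference rests on the LS/0B cells with Xist: without them it was 0.21, and for Dnd1 it was 1.21. Leaving out single LS/0B cells, replicate 18, 19 or 20, also took Dppa3 below 1 (0.94, 0.99 and 0.96), and scaling to the lys control gave 0.92.

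From LS/0B precursors to E/MB PGCs, both genes not used to choose PGCs were higher by at least 1, Dnd1 by 1.98 and Alpl by 2.05, against 2.96% of all genes (2.66% were lower by that size). Dppa3 was higher by 3.88, which choosing PGCs by stella sets in part, here and in each later comparison with PGCs. The LS/0B precursors were not chosen by stella, and their 8 cells with Dppa3 all had Dnd1 (643 to 2744) and Alpl (261 to 1527). The part of the choice by stella in the Dnd1 and Alpl differences was not tested. The pooled SDs were 1.5, 1.51 and 1.09, and the ranges overlapped for Dnd1 and Alpl. Xist was found in 8 of 17 LS/0B precursors and in 0 of 8 E/MB PGCs. LS/0B precursors without Xist had means of 8.32 for Dnd1 and 8.27 for Alpl, against 8.93 and 8.56 in all 17. The SD over cells of Dnd1 went from 2.03 to 0.63 and that of Alpl from 1.5 to 0.36. The PGC groups were thus not only higher but also more alike from cell to cell than the precursors. The precursors mix cells with and without Dppa3, and the part of choosing PGCs by stella in this narrowing was not tested.

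Among the PGC stages, 0 of 3 genes differed by 1 or more in either step. From E/MB to EHF the differences were 0.26, 0.02 and 0.03 for Dppa3, Dnd1 and Alpl, where 1.92% of genes were higher by 1 and 2.25% lower. From EHF to E8.25 they were -0.10, -0.25 and 0.24, where 1.71% of genes were higher and 1.53% lower. Each was smaller than its pooled SD (0.31, 0.62 and 0.49, then 0.39, 0.52 and 0.52).

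Over the whole span, E8.25 PGCs stood above PS epiblast by 3.84 for Dnd1 and 3.82 for Alpl, and by 4.73 for the chosen Dppa3. Both of the first were past 1, as were 4.9% of all genes upwards and 5.12% downwards. The signals of the groups did not overlap for any of the 3. How many of all genes had ranges apart was not counted, here or in later comparisons. For Dnd1 the highest PS cell was at 376 and the lowest E8.25 cell at 1113, and for Alpl these were 214 and 1062. PS cells all had Xist and E8.25 cells had none, and the part of this in the differences was not tested.

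Co-detection was then counted cell by cell. In the PS epiblast no cell had all 3 transcripts, and Dnd1 and Alpl were not found together in any of the 8: 1 cell had Dppa3 with Dnd1, 2 had Dppa3 with Alpl, 1 had Dppa3 alone, 2 Dnd1 alone and 2 Alpl alone. Of the 7 E/MS precursors, 1 had all 3, 2 had Dppa3 with Alpl, 1 had Dnd1 with Alpl, 1 had Dnd1 alone and 2 had Alpl alone. The 1 triple-positive E/MS cell had signals of 226 for Dppa3, 959 for Dnd1 and 617 for Alpl, the highest Dnd1 and the highest Alpl of its group. It was also the 1 E/MS cell with Kit above the limit.

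**Figure D3:**
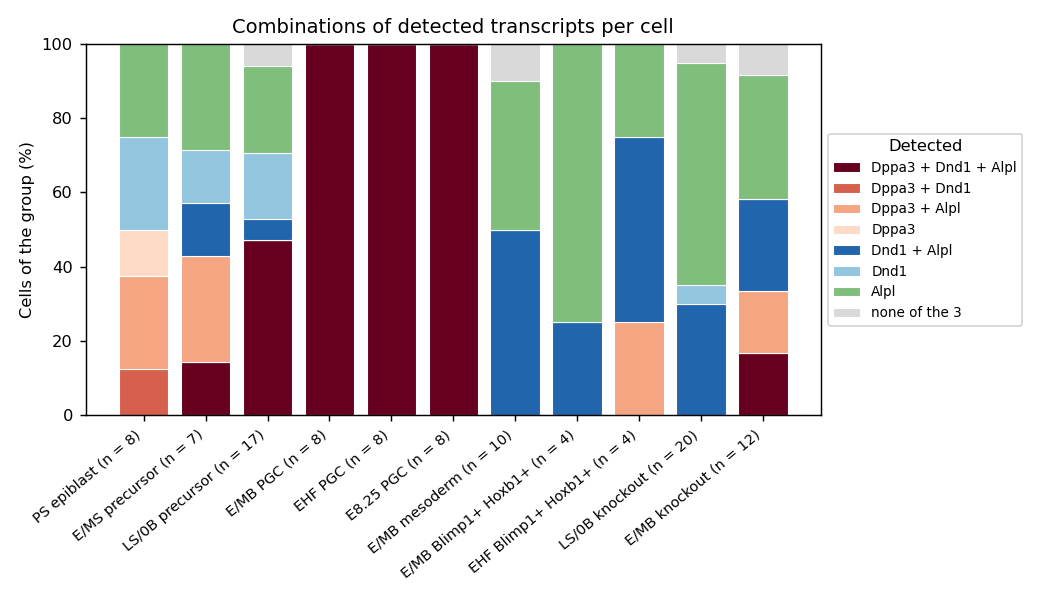
Share of cells (%) of each group with each combination of the 3 transcripts detected; each bar is 1 group and each colour 1 combination. The 3 PGC groups consist wholly of cells with all 3, the LS/0B precursors hold 8 such cells of 17, and Dppa3 is absent from the bars of mesoderm, E/MB Blimp1+ Hoxb1+ and LS/0B knockout cells.

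The LS/0B precursors were nested. All 8 cells with Dppa3 also had Dnd1 and Alpl, 1 cell had Dnd1 with Alpl, 3 had Dnd1 alone, 4 had Alpl alone and 1 had none. Of all genes, 31.8% were detected in this group at least as often as Dnd1 and 29.1% at least as often as Alpl. How many of all genes were detected in each of the 8 cells with Dppa3 was not counted. No LS/0B cell had Dppa3 without the other 2, whereas 4 had Dnd1 without Dppa3 and 5 had Alpl without Dppa3. With the limit at the 99th percentile the nesting held for Dnd1 but not for Alpl: 7 cells had all 3, and replicate 3 had Dppa3 with Dnd1 and Alpl (261) just under its limit of 266. The same 8 cells had Prdm1 and Prdm14, 7 of 8 had Tfap2c, 6 of 8 had Sox2 and 4 of 8 had Kit. Prdm14 and Tfap2c encode the transcription factors that act with Blimp1 in PGC specification, Sox2 a pluripotency factor regained by PGCs, and Kit the receptor for the survival factor Kit ligand. Among the 9 LS/0B cells without Dppa3, 8 had Prdm1, 3 had Prdm14, 3 had Tfap2c, 1 had Sox2 and 0 had Kit. Tfap2c and Sox2 also differed with Xist, found in 7 of 8 and 6 of 8 cells with it and in 3 of 9 and 1 of 9 without.

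Hoxb1, a mesodermal gene, was detected in 3 of the 8 LS/0B cells with Dppa3 and in 8 of the 9 without it. The 3 cells that had both stood at the low end of the Dppa3 values, with 278, 378 and 625. Hoxb1 went with Xist too, in 2 of 8 cells with it and in 9 of 9 without, so among cells without Xist it did not separate those with and without Dppa3. Among cells with Xist, Hoxb1 was found in 0 of 5 with Dppa3 and in 2 of 3 without it. Dnmt3b, the de novo DNA methyltransferase of the epiblast, was detected in 5 of the 8 and in 9 of the 9 (5 of 8 cells with Xist and 9 of 9 without), while Uhrf1, the partner of Dnmt1 in maintenance methylation, was detected in all 17. Xist was found in 5 of the 8 cells with Dppa3 and in 3 of the 9 without. Those 5 held the highest Dppa3 signals, from 941 to 2773, while cells without Xist reached 625 at most. For Dnd1 the counts were 6 of 8 cells with Xist and 6 of 9 without, and for Alpl 6 of 8 and 7 of 9.

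**Figure D4:**
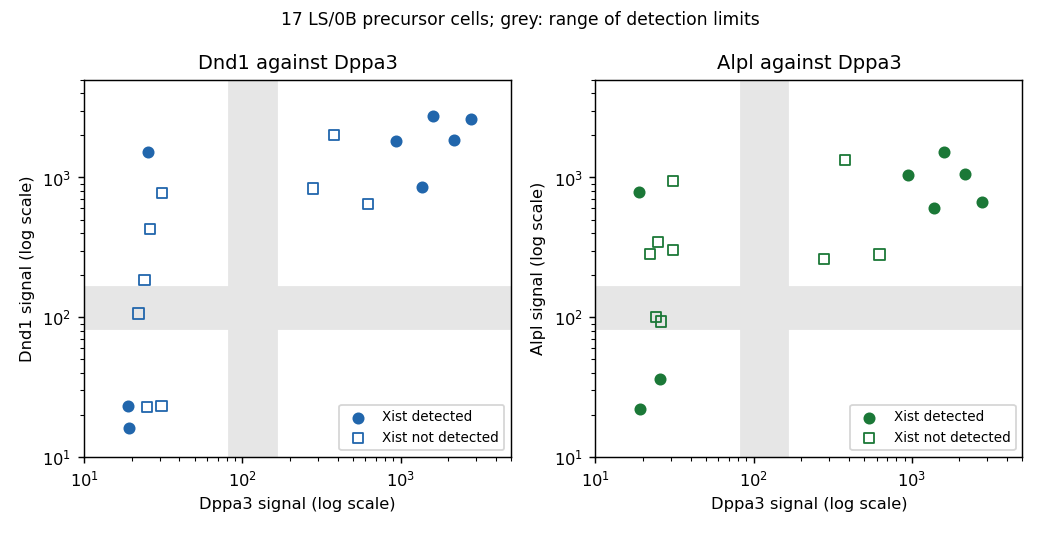
Signals of Dnd1 (left) and Alpl (right) against Dppa3 in the 17 LS/0B precursors, on log axes; filled circles are the 8 cells with Xist detected, open squares the 9 without, and grey bands span the detection limits. No cell lies to the right of the vertical band and below the horizontal one, and the 5 cells of highest Dppa3 are all filled circles.

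Within the LS/0B precursors the log2 signals of Dppa3 and Dnd1 had a Pearson r of 0.76 over 17 cells (Spearman rho 0.81), those of Dppa3 and Alpl 0.61 (0.58), and those of Dnd1 and Alpl 0.46 (0.54). These are descriptions, since cells may share embryos and each pair of values comes from 1 array. The number of probe sets above the limit had an r of 0.37 with Dppa3, 0.27 with Dnd1 and 0.02 with Alpl in the same cells. The r of Dppa3 with Dnd1 was 0.76 in the 8 cells with Xist and 0.68 in the 9 without, and that of Dppa3 with Alpl was 0.73 and 0.32. In the 24 PGCs, where all 3 genes vary little, the values were 0.47, 0.45 and 0.23.

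Loss of Blimp1 was compared at both stages for which knockout cells exist. At LS/0B, 2 of 3 genes were higher in wild-type precursors than in knockout cells by 1 log2 unit or more, Dppa3 by 1.75 and Dnd1 by 2.20, as were 0.39% of all genes (1.06% were lower). Alpl differed by 0.41, against a pooled SD of 1.32. The pooled SDs for Dppa3 and Dnd1 were 1.49 and 1.60, and since 0 knockout cells had Dppa3 above the limit, its fold is a lower bound of at least 1.20. That bound sets the mean of all 17 precursors, 9 of them low, against the detection limit. Without the precursors that had Xist, a transcript found in 0 of 20 knockout cells, the differences were 0.81 for Dppa3 and 1.59 for Dnd1.

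Of the 20 LS/0B knockout cells, 6 had Dnd1 with Alpl, 1 had Dnd1 alone, 12 had Alpl alone and 1 had none. The cell of highest Dnd1 in this group, at 1041, also had Prdm14 at 1091, Tfap2c at 1035 and Kit at 414, with Hoxb1 at 2.66 and Dppa3 at 18.8. It was the 1 of the 20 cells whose Dnd1 reached the PGC range, and it lacked Dppa3 and Sox2 (4.16). Uhrf1 (591) and Dnmt3b (2315) were detected in it. The single Dppa3 signal away from the rest of the group, 110, was below the limit of its cell.

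At E/MB, Dnd1 was higher in PGCs than in knockout cells by 3.88 and Alpl by 1.95, both past 1, where 3.61% of all genes were and 4% were lower by that size. Dppa3 differed by 5.04, but the PGCs had been chosen by stella and the knockout cells had not. For Dnd1 the ranges did not overlap (938 at the lowest PGC and 860 at the highest knockout cell), and for Alpl they did. Among the 12 knockout cells, 2 had all 3 transcripts, 2 had Dppa3 with Alpl, 3 had Dnd1 with Alpl, 4 had Alpl alone and 1 had none.

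The triple-positive E/MB knockout cells were replicate 8, with signals of 210 for Dppa3, 126 for Dnd1 and 1457 for Alpl, and replicate 9, with 253, 860 and 2010. Their Alpl was within the PGC range, and their Dppa3 was far below the lowest PGC signal of 2508. Both also had Prdm14 and Kit, and neither had Sox2. Tfap2c was detected in replicate 8 (1101) and not in replicate 9 (2.49). Hoxb1 was detected in 12 of 12 knockout cells at this stage, the 4 with Dppa3 included, and in 0 of 24 PGCs. With the limit at the 99th percentile, 1 of the 4 kept Dppa3 and none had all 3 transcripts.

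Between the knockout stages, E/MB minus LS/0B, 0 of 3 genes differed by 1 or more, where 0.544% of genes were higher by that size and 0.676% lower. The differences were 0.59 for Dppa3, 0.31 for Dnd1 and 0.50 for Alpl, against pooled SDs of 0.66, 1.12 and 1.31. Without a floor the Dppa3 difference was 1.25. Summed germ cell marker signals in these groups ran from 183 to 6506 at LS/0B and from 121 to 10757 at E/MB.

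Against posterior mesoderm, Dnd1 was higher in E/MB PGCs by 3.68 and Alpl by 1.55, both past 1, where 8.43% of all genes were and 3.62% were lower. Dppa3, by which the PGCs were chosen, differed by 5.66 and was at least 28.6-fold higher, as a bound set by the detection limit of the mesoderm cells. Dnd1 signals did not overlap (938 at the lowest PGC, 409 at the highest mesoderm cell), and Alpl signals did. The median of 7250 broadly detected genes was itself 0.16 higher in these PGCs, and the mesoderm arrays were those with brighter hybridisation controls, whose part in the differences was not tested beyond the following scalings. With that median set equal the differences of Dppa3, Dnd1 and Alpl were 5.65, 3.42 and 1.28, and with scaling to the lys control they were 5.44, 3.07 and 0.95. Of the mesoderm cells, 5 had Dnd1 with Alpl, 4 had Alpl alone and 1 had none.

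Against Blimp1+ Hoxb1+ cells, Dnd1 was higher in PGCs at E/MB by 3.96 and Alpl by 1.06, both past 1, where 5.21% of all genes were and 5.52% were lower. Dppa3, again the chosen gene, differed by 5.66 and was at least 31.7-fold higher by the same kind of bound. Alpl lost this size without Blimp1+ Hoxb1+ replicate 3 (0.81) or 4 (0.96), without PGC replicate 4 (0.96), and with quantile normalization (0.98). At the stage labelled EHF, Dnd1 was higher by 3.99, past 1 as 6.94% of genes were (5.54% were lower), Alpl differed by 0.84, and the chosen Dppa3 differed by 5.70. That Alpl value was 1.28 without the EHF PGCs that had Xist. Of the 3 genes, 3 of 4 Blimp1+ Hoxb1+ cells had Alpl alone and 1 had Dnd1 with Alpl at E/MB, and 1 had Alpl alone, 2 Dnd1 with Alpl and 1 Dppa3 with Alpl at EHF. Prdm1 was detected in 4 of 4 and 3 of 4 of these cells, and the cell with Dppa3 was the one without it.

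Being detected in all 24 PGCs was not rare, since 2569 of 18193 genes (14.1%) were. Being detected there and in no mesoderm cell was, with 14 genes, among them Dppa3, Prdm1 and Sox2. Detected in all PGCs and in at most 1 of the 38 mesoderm, Blimp1+ Hoxb1+ and LS/0B knockout cells were 5 genes: Dppa3, Slc40a1, Syt2, Tex101 and Tsga8. Dnd1 and Alpl are not among them. The E/MB knockout cells, of which 4 of 12 had Dppa3, are not part of that count. PGCs were chosen by stella and Blimp1, and mesoderm cells by the lack of Blimp1. The place of Dppa3 in these lists, and of Prdm1 among the 14, thus follows in part from those choices.

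Other germ cell genes were read from a list of 15 measured symbols that includes the 3 members. From E/MS to LS/0B precursors 5 of 15 were higher by at least 1 and 0 lower: Prdm14, Tfap2c, Dppa3, Dnd1 and Ifitm3, with a median difference of 0.76 against 0 over all genes. From LS/0B precursors to E/MB PGCs 9 of 15 were higher and 0 lower, with a median of 1.60 against 0. The 9 were the members together with Prdm1, Prdm14, Tfap2c, Ifitm3, Kit and Sox2, and Dppa3 is in that count as the chosen gene. Over all genes, 1.48% were higher and 1.47% lower in the first step, and 2.96% and 2.66% in the second. The mean log2 signal of Kit went from 6.73 to 10.25 there, and Ifitm3, which encodes the interferon-induced membrane protein fragilis, from 11.15 to 12.75. Dazl, a later germ cell RNA-binding gene, was detected in 0 cells of any group. Sall4 and Lin28a were detected in every cell of every group, with means of 11.66 to 12.31 for Sall4. Elsewhere some genes of the list were lower by at least 1. From PS epiblast to E/MS precursors 2 of 15 were higher (Prdm1 and Ifitm1) and 2 lower (Sox2 and Ddx4). From E/MB to EHF PGCs 0 were higher and 1 lower (Ddx4), and from EHF to E8.25 PGCs 0 and 1 (Prdm14). Between PS epiblast and E8.25 PGCs 11 were higher, the chosen Dppa3 and Prdm1 included, and 1 lower (Ddx4). Ddx4 was detected in 6 of 8 PS cells and in 0 of 8 EHF PGCs.

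**Figure D5:**
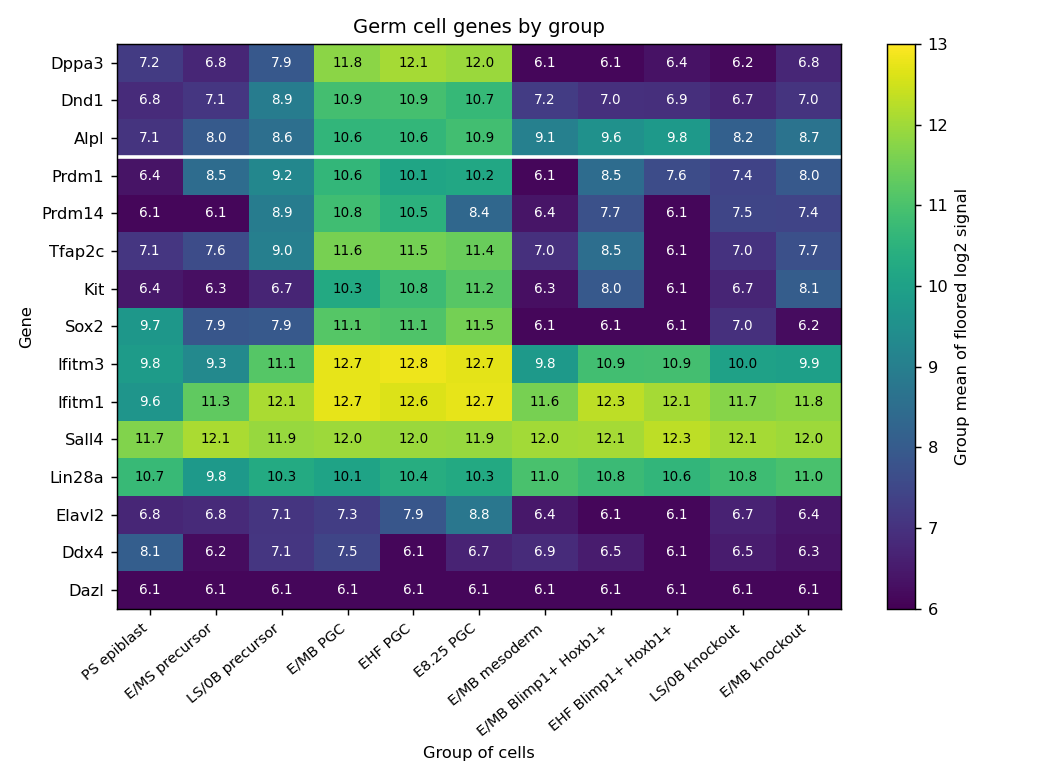
Group means of floored log2 signal for the 15 measured genes of the germ cell list, with Dppa3, Dnd1 and Alpl above the white line; the number in each cell of the grid is the mean. Dnd1, Prdm14 and Tfap2c are higher in LS/0B than in E/MS precursors, Kit becomes high with Dppa3 in the PGC columns, and Sall4 and Lin28a are high in all columns. Sox2 is at 9.7 in PS epiblast, lower in the E/MS (7.9) and LS/0B (7.9) precursors, and highest in the PGC columns.

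Against knockout cells the same list had 6 of 15 genes higher by at least 1 in wild-type cells at LS/0B (Prdm1, Prdm14, Tfap2c, Dppa3, Dnd1 and Ifitm3; median difference 0.58) and 10 of 15 at E/MB (median 2.18), with 0 lower in either. Over all genes, 0.39% were higher and 1.06% lower at LS/0B, and 3.61% higher and 4% lower at E/MB. Alpl was among the 10 and not among the 6. Prdm1 was a gene by which these cells were chosen, and its null transcript is still made in the knockout, where it was detected in 12 of 20 and 9 of 12 cells. Against mesoderm and against the Blimp1+ Hoxb1+ cells of E/MB, 10 of 15 were higher and 0 lower each time, with medians of 2.97 and 1.88. Over all genes, 8.43% were higher and 3.62% lower against mesoderm, and 5.21% and 5.52% against Blimp1+ Hoxb1+ cells. Dppa3 is in each of the E/MB counts as the chosen gene. Prdm1 is in them too, and mesoderm cells were chosen by the lack of Blimp1.

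The other alkaline phosphatases measured, Alppl2, Alpi and Akp3, were detected in 0 cells of any group, so Alpl was the 1 member of its family with signal. Among genes of phosphate and pyrophosphate handling, the phosphate transporter Slc20a1 had a mean of 10.30 in PS epiblast, 8.17 in E/MB PGCs, 7.06 in EHF PGCs and 9.15 in E8.25 PGCs, while Slc20a2 stayed between 8.85 and 9.96 in all groups. Of the genes named with Dppa3, Dppa2 and Dppa4 were detected in at most 2 cells of any group. Dppa5a had mean log2 signals of 11.12 in PS epiblast, 10.82 in E/MS precursors, 7.82 in LS/0B precursors, 6.94 and 6.90 in E/MB and EHF PGCs, and 8.49 in E8.25 PGCs.

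Among RNA-binding genes of germ cells set beside Dnd1, 12 were measured, and from LS/0B precursors to E/MB PGCs Dnd1 was the 1 gene of the 12 past 1 log2 unit. Dnd1 recruits CCR4-NOT, and of 9 measured subunits of that complex 1 was higher by at least 1 in the same comparison, Cnot11, and 1 lower, Cnot6, where 2.96% of all genes were higher and 2.66% lower. Cnot11 had a mean of 9.56 in LS/0B precursors and between 10.89 and 11.07 in the PGC groups. The median difference of the 9 was -0.23 against 0 over all genes.

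Dppa3 protein is known to limit the nuclear access of Uhrf1, so 10 measured genes of DNA methylation were listed beside it. From LS/0B precursors to E/MB PGCs, 3 of the 10 were lower by at least 1 (Uhrf1, Dnmt3a and Dnmt3b) and 0 higher, where 2.66% of all genes were lower and 2.96% higher. Uhrf1 had means of 10.01, 9.60 and 9.84 in the PS, E/MS and LS/0B groups and of 6.76, 6.66 and 7.16 in the PGC groups, and it was detected in 2, 3 and 4 of 8 PGCs. In the knockout groups it stood at 10.03 and 10.04. Dnmt1 differed little, between 10.31 and 11.05 in all groups.

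Genes with the most similar course were taken as those with the highest Pearson r over the 11 group means among the 8523 genes found in 75% or more of the cells of any 1 group. For Dppa3 these were Isl2 (r = 0.99), Slc40a1 (0.98), Cpsf4l (0.98), Atp13a2 (0.98) and Pygl (0.98), with Dnd1 at place 13 (0.97) and Alpl at place 847 (0.72). For Dnd1 they were Syt2 (0.99), Mea1 (0.98), Isl2 (0.98), Qars (0.98) and Atp13a2 (0.97), with Dppa3 next at place 6. For Alpl they were Rabac1 (0.97), Serf1 (0.95), Dock6 (0.94), Wdr62 (0.93) and Ube2h (0.93), with Dnd1 at place 205 and Dppa3 at place 310. The high r of the first 2 sets rests on the step between 3 PGC groups and 8 others. With Spearman's rho, which weighs the order of all groups, 0 of 5 genes were shared for Dppa3, 0 of 5 for Dnd1 and 4 of 5 for Alpl, and over all cells 1, 1 and 0 were shared. Dnd1 was among the 5 most similar genes to Dppa3 over cells (r = 0.83), and Dppa3 among those to Dnd1.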

How the data were processed

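Single cells of mouse embryos were lysed and their cDNA was amplified by PCR, labelled and hybridised to 1 array each, per the labels' protocols. Per the submitters' processing notes, the authors used MAS5, and what they deposited is an intensity on a linear scale, 1 for each probe set in each cell. The sources used here do not give its version or scaling target. Of 45101 probe sets, 64 were controls, and 34945 with 1 gene symbol gave 18193 genes; where a gene had several, the one of highest mean log2 signal was used. The lowest value, 1, made up 15.3% of the table, and 1 value was missing. Precision is limited by how many arrays there are.

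The floor is the median over cells of the 90th percentile of 126 background probe sets (olfactory, vomeronasal and taste receptors and Krtap genes), and the detection limit is their 95th percentile in each cell. A difference is 1 group's mean of floored log2 signals minus the other's, set beside the pooled SD of their cells, and the threshold of 1 is a statement of size. Replicates are cells, not embryos, so no test was made. A lower bound of a fold sets the unfloored mean of the brighter group against the mean, in the dimmer, of the higher of each cell's limit and its own signal. Intervals are exact Clopper-Pearson at 95%. Shares of all genes past 1 log2 unit were taken over 18193 genes. No such share was taken for ranges that do not overlap, so non-overlap describes the members only. Named genes are the 3 members, the 7 listed gene sets (52 of 62 symbols measured), the genes by which cells were chosen, Ifitm3, and the 5 genes most like each member; the 5 and 14 genes with a given detection pattern, Xist, and the cells described one by one were singled out after their values were seen. The members and lists were chosen with earlier results of these data known. Alternatives were other floors, probe set averaging, quantile normalization, scaling to the spiked lys control or to the median of genes detected in at least 50% of cells, leaving out cells with Xist, leaving out each cell in turn, and other detection limits. Scripts ran in Python 3.11.15 with NumPy 2.4.6, pandas 2.3.3 and SciPy 1.17.1 and were tested on simulated data. Promoters came from RefSeq (GRCm38.p6).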

Additional observations from a re-analysis of the deposited data

Results flagged for a closer look

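Of 22 groups of 4 to 10 cells in which a member varied, 3 held a cell far from the others by Dixon's 95% criterion. Chance gives about 1 such group in 20 for values without ties, a rate that does not apply to the first pair below: with the others tied at the floor, any single cell above it meets the criterion. Dppa3 in Blimp1+ Hoxb1+ cells labelled EHF had 1 cell, replicate 5, at a log2 signal of 7.01 (signal 129) with the other 3 at the floor of 6.13. Dnd1 in the Blimp1+ Hoxb1+ cells of E/MB had replicate 3 at 9.45 (signal 697) with the other 3 at the floor. Dnd1 in the E/MS precursors had replicate 5 at 9.91 (signal 959), with the next of the 7 cells at 7.59. This was the cell with all 3 transcripts. Replicates 2, 3 and 4 of that group were tied at the floor, so the rate for values without ties does not hold there either.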

How the results depend on the processing

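The 36 differences (3 genes in 12 comparisons) were recomputed under 999 alternatives: 984 moved by less than the spread between cells, 15 by more, and 0 reversed. All 729 that left out 1 cell stayed within that spread, as they had to with at least 4 cells in each group. Averaging probe sets could not change any of the 36, since each member has 1 probe set. The count of 984 thus holds many alternatives whose outcome was fixed in advance. The size rule could change, and 18 alternatives crossed 1 log2 unit, as given beside the results. Without a floor, the differences that moved were 5.67 (Dppa3) and 4.64 (Dnd1) for E8.25 PGC minus PS epiblast, and for Dppa3 6.25 for E/MB PGC minus knockout, 7.29 minus mesoderm, 7.36 minus Blimp1+ Hoxb1+, and 6.93 at EHF. With a floor of 32 the last 4 were 5.80, 6.77, 6.80 and 6.55. With the highest floor tried, Dppa3 gave 4.80 against mesoderm, 4.80 against Blimp1+ Hoxb1+ cells at E/MB and 5.05 at EHF. The floor sets these values, since most of the dimmer cells lie under it. Scaling to the lys control gave 5.44 against mesoderm and 5.46 against Blimp1+ Hoxb1+ cells at E/MB, and the cause was not tested.

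Detection near the limit moved most. At the 90th percentile Alpl was detected in 7 of 8 PS cells and 10 of 10 mesoderm cells. At the 99th percentile, Alpl was detected in 0 PS, 8 LS/0B knockout and 7 E/MB knockout cells. Dnd1 was then detected in 1 mesoderm, 1 LS/0B knockout and 0 EHF Blimp1+ Hoxb1+ cells, and Dppa3 in 1 E/MB knockout and 0 EHF Blimp1+ Hoxb1+ cells. Cells with all 3 transcripts were then 0 in the E/MS and 0 in the E/MB knockout group. The other detection counts stayed within their intervals. No paired analysis was possible because cells of different groups share no embryo in the labels and the results come from no test.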
